A study of Mus musculus with 2 samples.

Results

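Efferocytosis is the clearance of dying cells by phagocytes. The genes described here are 10 of its receptors and bridging ligands: the receptor genes *Mertk*, *Axl*, *Tyro3*, *Timd4*, *Lrp1* and *Cd36*, the bridging ligand genes *Gas6*, *Pros1* and *Mfge8*, and *Cd47*, which codes for the signal that protects living cells from engulfment. They were listed by name and not by a cutoff on measured values, but with earlier results of these data known. All 10 were found in both count tables, which hold 32285 genes each.

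The data are single-cell RNA sequencing (scRNA-seq) of neonatal mouse hearts after myocardial infarction (MI). Infarction was made at postnatal day 2, and the 9-day-old hearts were collected 7 days after it (P2MI7dpi). Live cells, negative for the dead-cell stain 7AAD and positive for the leukocyte marker CD45, were sorted by FACS and run on the 10x Chromium 5′ chemistry. The WT library pooled cells of 5 wild-type hearts, and the *Lyve1* KO library pooled cells of 5 hearts of mice with a global deletion of *Lyve1*, a hyaluronan receptor of lymphatic vessels and of a subset of tissue macrophages. Hearts of both genotypes had MI, and cells of both sexes were found in each library. The strain of the WT mice of this experiment was not given in the sources used here. With 1 library per genotype there is no replicate, so no test between genotypes was possible, and genotype cannot be told apart from library or from the 5 hearts in each pool. Intervals below are 95% intervals that cover counting error only, exact Poisson for levels, exact conditional binomial for ratios and Clopper-Pearson for shares of cells.

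A dying cell exposes phosphatidylserine on its surface. TIM-4, the product of *Timd4*, binds it directly. The receptor kinases TYRO3, AXL and MERTK (the TAM family) bind it through GAS6 or protein S, the product of *Pros1*, and MFG-E8 bridges it to integrins. CD36 and LRP1 are scavenger receptors that take part in the uptake of dying cells and lipoproteins, LRP1 with calreticulin as a partner. CD47 on a living cell binds SIRPα on the phagocyte and restrains engulfment. In the heart, resident macrophages take up cardiomyocyte debris, and MERTK and TIM-4 are commonly used markers of resident macrophages.

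Of the upstream sequences of the 10 genes, 3 are printed, of *Timd4* because it alone lacks a GC box and of *Gas6* and *Pros1* because these ligands of 1 receptor family differed in opposite directions between the libraries below. They are the 250 bases before the RefSeq start site, 5′ to 3′ on the strand of the gene, from the RefSeq table of GRCm38.p6, in which all 10 genes matched. Capitals mark the GC box GGGCGG or its complement CCGCCC, and in *Timd4* the hexamer AGGTCA and the heptamer TGCTGAC, the latter in its complement. The windows are chr11:46810549-46810798 (+) for *Timd4*, chr8:13494536-13494785 (−) for *Gas6* and chr16:62854057-62854306 (+) for *Pros1*.
Timd4: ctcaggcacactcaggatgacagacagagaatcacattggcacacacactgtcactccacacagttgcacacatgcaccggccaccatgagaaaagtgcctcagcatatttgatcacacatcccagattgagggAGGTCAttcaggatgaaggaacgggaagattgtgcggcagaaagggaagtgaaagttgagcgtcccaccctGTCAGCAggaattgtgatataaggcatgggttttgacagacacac
Gas6: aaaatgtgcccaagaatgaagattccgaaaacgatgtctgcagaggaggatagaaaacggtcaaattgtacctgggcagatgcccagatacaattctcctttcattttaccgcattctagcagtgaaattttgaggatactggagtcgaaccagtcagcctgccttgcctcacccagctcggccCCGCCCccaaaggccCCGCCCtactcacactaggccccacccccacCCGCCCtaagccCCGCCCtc
Pros1: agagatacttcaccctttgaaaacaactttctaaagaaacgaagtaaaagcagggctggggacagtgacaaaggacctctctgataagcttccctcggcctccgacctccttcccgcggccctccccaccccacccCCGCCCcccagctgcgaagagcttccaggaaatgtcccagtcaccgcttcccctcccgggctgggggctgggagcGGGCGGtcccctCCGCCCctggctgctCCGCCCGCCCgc
The RefSeq starts of *Cd36* and *Tyro3* lie 52905 and 1781 bases downstream of the GENCODE gene starts given below. *Cd47* has 2 RefSeq starts, 55121 and 55128 bases downstream, so these windows lie inside the annotated genes. A GC box was found on either strand in the windows of 9 of the 10 genes and in 32.7% of all 32851 windows of this length. *Timd4* was the gene without it. *Timd4* was also the only gene of the 10 with TGCTGAC, the core of sites bound by MAF factors, which 3.81% of all windows hold. The nuclear receptor hexamer AGGTCA was in the windows of *Timd4* and *Cd36* and in 14.0% of all windows. GAGGAAGT (a PU.1-type site), TTGCGCAA (C/EBP-type) and CACGTG (E-box) were in none of the 10. These letter matches are a description of the windows. In the GENCODE annotation of GRCm38, *Timd4* (ENSMUSG00000055546) lies at chr11:46810800-46844332 on the + strand, *Gas6* (ENSMUSG00000031451) at chr8:13465374-13494490 on the − strand, *Pros1* (ENSMUSG00000022912) at chr16:62854307-62929346 on the + strand and *Mertk* (ENSMUSG00000014361) at chr2:128698956-128802894 on the + strand. *Cd47* lies at chr16:49800533-49915010 and *Tyro3* at chr2:119797733-119818104, both on the + strand. *Axl* (chr7:25757273-25788705), *Mfge8* (chr7:79133768-79149060), *Lrp1* (chr10:127538161-127621148) and *Cd36* (chr5:17781690-17888801) are on the − strand. All 10 genes are protein coding. Annotated genes overlap *Mertk* (*Gm14011* and *Gm23172*), *Gas6* (*Tmem255b*) and *Lrp1* (*Gm16217*). Those at *Gas6* and *Lrp1* are on the opposite strand.

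The deposited tables held 67968938 unique molecular identifiers (UMIs, each marking 1 RNA molecule) over 5713 WT barcodes and 61555917 UMIs over 5285 KO barcodes, with 9 barcode sequences in both. Limits on genes, UMIs and mitochondrial share, and removal of doublets, kept 4187 WT and 3391 KO cells with medians of 11104 and 12909 UMIs. The mitochondrial limit of 30% was exceeded by 10.5% of WT and 16.5% of KO barcodes. *Ptprc*, which codes for CD45, had a UMI in 86.7% of kept WT and 90.1% of kept KO cells. Clusters, made without the 10 genes, were named from marker lists. This gave 1081 WT and 477 KO cells like CCR2- macrophages (25.8% and 14.1% of kept cells, CCR2- cells below), 195 and 191 cells like CCR2+ macrophages (CCR2+ cells below), 488 and 542 monocyte-like cells, and 61 and 30 dendritic cell-like cells. The unnamed clusters held 1045 WT and 699 KO cells. Median UMIs per cell were 24068 and 26496 in CCR2- cells, 24745 and 29438 in CCR2+ cells, 16609 and 19731.5 in monocyte-like cells, and 6394 and 41984.5 in dendritic cell-like cells. The dendritic class is therefore small and of unequal depth. Levels are given as CPM, the UMIs of a gene scaled to the total UMIs of the same cells, and levels of 1 gene are compared across cells, never levels of different genes.

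Levels of *C1qa*, *Ccr2* and *Flt3* describe the classes. These genes are on the lists used to name clusters, so their levels are no independent check. *C1qa*, a complement gene of macrophages, stood at 4424 (WT) and 3934 CPM (KO) in CCR2- cells, at 1934 and 1580 CPM in CCR2+ cells, and at 34.2 and 2.10 CPM in monocyte-like cells. *Ccr2*, the chemokine receptor of recruited monocytes, stood at 41.0 and 56.4 CPM in CCR2- cells and at 612 and 733 CPM in CCR2+ cells. In monocyte-like cells it was higher, at 807 and 763 CPM. *Flt3*, the growth factor receptor of dendritic cells, stood at 201 and 233 CPM in dendritic cell-like cells and at 3.95 CPM or less in the other 3 classes. *Lyve1* itself was 548 (WT) and 21.8 CPM (KO) in CCR2- cells, so the library labelled KO had 3.97% of the WT level. In classes where the WT library had little *Lyve1*, the KO library had more, 22.7 CPM against 2.24 CPM in CCR2+ cells and 5.44 CPM against 0.324 CPM in B cell-like cells.

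The TAM receptor genes were divided between the macrophage classes. *Mertk* was highest in CCR2- cells, at 147 CPM (143 to 152) in WT and 132 CPM in KO. It was 90.5 and 92.8 CPM in CCR2+ cells, 9.83 and 5.45 CPM among monocyte-like cells, and 4.07 and 3.07 CPM in dendritic cell-like cells. The intervals of the macrophage classes did not overlap in either library, and the dendritic level rested on 5 and 4 UMIs. The order was different for *Axl*. It was highest in CCR2+ cells, at 126 (WT) and 134 CPM (KO), 1.59 and 2.09 times the CCR2- levels of 79.4 and 64.3 CPM. Monocyte-like cells had 30.2 CPM of *Axl* in WT and 24.9 CPM in KO, and dendritic cell-like cells 39.9 and 10.8 CPM, and in WT these intervals overlapped. *Tyro3*, the third TAM receptor, was close to absent at this depth. All kept cells together held 7 UMIs of *Tyro3* in WT and 26 in KO, of which 4 and 10 were in T cell-like cells and 1 and 1 in CCR2- cells. No *Tyro3* UMI was found in CCR2+, monocyte-like or dendritic cell-like cells, and a count of 0 allows up to 0.610 CPM in WT CCR2+ cells and 0.287 CPM in KO monocyte-like cells. Here and below, the limit given for a count of 0 is the level of 3 UMIs over the same cells.

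*Timd4* was found in a narrower set of cells. It was 127 CPM (123 to 131) in WT and 186 CPM in KO CCR2- cells, and 142 CPM (121 to 164) and 88.4 CPM in dendritic cell-like cells. In WT the intervals of these classes overlapped, so their order is not resolved there. In KO the CCR2- level was 2.11 times the dendritic level. CCR2+ cells had 4.68 and 2.34 CPM, and monocyte-like cells held 0 UMIs in WT, which allows up to 0.359 CPM, and 1 UMI in KO. An unnamed cluster led by *Cd209a* and *H2-Ab1*, nearest to the markers of conventional dendritic cells of type 2, had 483 CPM of *Timd4* in WT (35 cells) and 572 CPM in KO (32 cells). These levels were above those of CCR2- cells in both libraries. The cluster was not part of the dendritic class, so the order of that class and CCR2- cells depends on how clusters were named.

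The scavenger receptor genes reached into monocytes. *Lrp1* was highest in monocyte-like cells, at 437 (WT) and 452 CPM (KO), then in CCR2+ cells at 362 and 347 CPM and in CCR2- cells at 260 and 206 CPM. None of these 3 intervals overlapped in either library, and dendritic cell-like cells had 16.3 and 32.3 CPM. The unnamed *Cd209a* cluster, not part of the dendritic class, had 101 and 77.9 CPM of *Lrp1*. *Cd36* was highest in CCR2- cells, at 428 (WT) and 361 CPM (KO). The other 3 classes had 263 and 165 CPM (monocyte-like), 228 and 200 CPM (CCR2+) and 173 and 161 CPM (dendritic cell-like). In KO the intervals of monocyte-like and dendritic cell-like cells overlapped. The *Cd209a* cluster had 0.841 (WT) and 59.8 CPM (KO) of *Cd36*, below the dendritic class. B cell-like cells also carried *Cd36*, at 126 (WT) and 141 CPM (KO), whereas T cell-like cells had 4.46 and 9.40 CPM.

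Among the ligand genes, *Gas6* had the widest gap between its highest class and the next. CCR2- cells had 406 CPM (399 to 414) in WT and 331 CPM in KO, 9.12 and 18.0 times the next class. They held 93.7% of all *Gas6* UMIs of the kept WT cells and 94.99% of those of the kept KO cells. CCR2+ cells had 44.6 and 18.4 CPM. Monocyte-like cells held 17 UMIs in WT and 0 in KO, which allows up to 0.287 CPM. *Pros1* was spread more evenly. It was 58.2 (WT) and 99.3 CPM (KO) in CCR2- cells, 35.1 and 46.9 CPM among monocyte-like cells, 31.3 and 30.03 CPM in CCR2+ cells, and 11.4 and 5.38 CPM in dendritic cell-like cells. In WT the intervals of monocyte-like and CCR2+ cells overlapped. *Mfge8* was low in each of these 4 classes, at 16.8 (WT) and 15.8 CPM (KO) in CCR2- cells and at 6.17 to 9.76 CPM in the other 3. It was higher outside them in mast cell or basophil-like cells, at 59.8 (WT, 19 UMIs) and 24.7 CPM (KO, 5 UMIs), and in cells like NK or innate lymphoid cells in KO, at 40.5 CPM against 15.4 CPM in WT. T cell-like cells had 15.9 and 15.5 CPM of *Mfge8*, close to the CCR2- level, and in both libraries the interval of dendritic cell-like cells overlapped that of CCR2- cells. The *Cd209a* cluster had 23.5 and 47.6 CPM of *Mfge8* over 28 and 55 UMIs, above the CCR2- levels.

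*Cd47* was present throughout. It was 458 (WT) and 490 CPM (KO) in monocyte-like cells, 462 and 381 CPM in dendritic cell-like cells, 307 and 284 CPM in CCR2+ cells and 195 and 201 CPM in CCR2- cells, which were the lowest of the 4 classes in both libraries. In WT the intervals of monocyte-like and dendritic cell-like cells overlapped. In this order of the 4 classes, 6 of the 10 genes were highest in CCR2- cells in WT and 7 in KO, where *Timd4* joined them. The dendritic class leaves out the unnamed *Cd209a* and *H2-Ab1* cluster, where *Timd4* and *Mfge8* were higher than in CCR2- cells in both libraries. Of the 6, *Tyro3* stood on 1 UMI, and the *Mfge8* interval of CCR2- cells overlapped that of dendritic cell-like cells. The share of all genes highest in CCR2- cells was not counted, so these counts only describe the 10 genes.

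**Figure D1:**
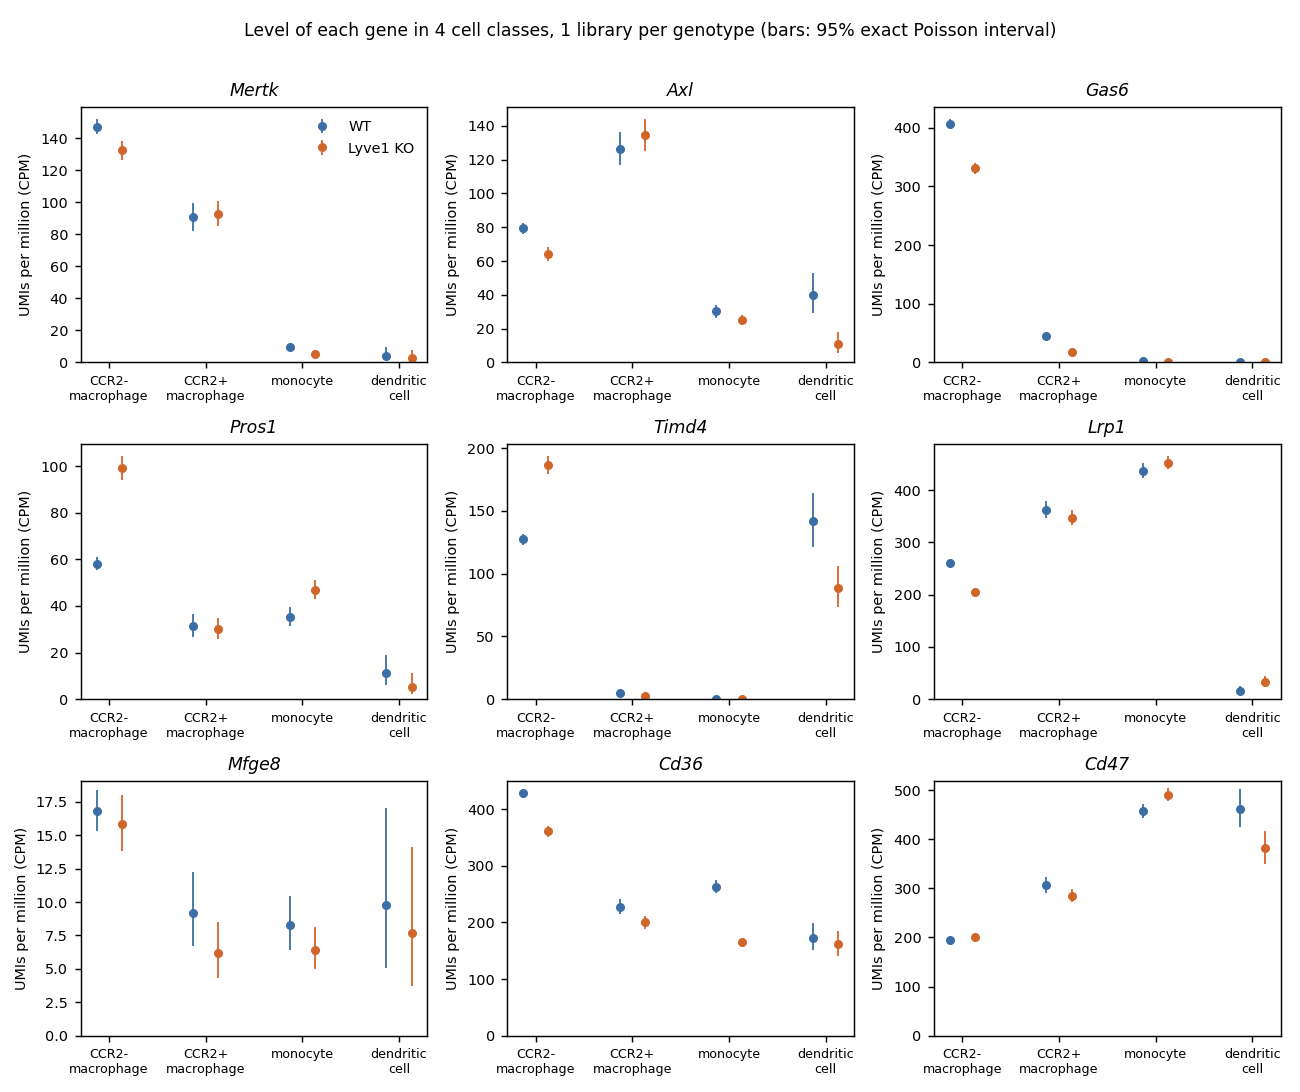
Level of 9 of the 10 genes (*Tyro3* is left out for its few UMIs) in CPM on the vertical axis in the 4 cell classes, for the WT and the *Lyve1* KO library, 1 library each; bars on the points are 95% exact Poisson intervals of counting error. *Gas6* stood at 406 and 331 CPM in CCR2- cells and at 44.6 CPM or less in the other classes, *Axl* peaked in CCR2+ cells, and *Cd47* was lowest in CCR2- cells.

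Shares of cells with at least 1 UMI were compared after each cell was thinned to 7400 UMIs, since depth differed between classes and libraries. In CCR2- cells, 76.3% of 1026 thinned WT cells (73.6 to 78.9) and 69.4% of 457 thinned KO cells (64.9 to 73.6) had a UMI of *Gas6*, where 84.5% and 78.4% had one before thinning. The share was 57.7% and 53.4% for *Mertk*, 35.9% and 32.2% for *Axl*, 29.3% and 34.4% for *Timd4*, and 32.8% and 42.7% for *Pros1*. In thinned lymphocytes (B cell-like or T cell-like), which serve as background, the shares were 0% and 0% for *Mertk* and for *Timd4*, 0.214% and 0% for *Gas6*, 1.496% and 1.44% for *Axl* and 0.855% and 0.577% for *Pros1*. Median depth before thinning was 9718 and 12275 UMIs in those lymphocytes. Thinning left out 55 WT and 20 KO CCR2- cells and 305 WT and 190 KO lymphocytes. The shares for *Mfge8* were 10.3% and 13.6% in CCR2- cells against 5.98% and 6.35% in the lymphocytes. For *Cd36* they were 74.4% and 68.9% against 25.6% and 24.7%. For *Lrp1* they were 71.5% and 65.6% in CCR2- and 93.7% and 93.0% in monocyte-like cells, against 1.28% and 0.577% in the lymphocytes. *Cd47* was found in 73.3% and 74.8% of CCR2- cells and in 84.0% and 84.0% of the lymphocytes. Lymphocytes express *Cd47*, and B cells *Cd36*, so for these genes their share is no background.

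The number of the 5 receptor genes *Mertk*, *Axl*, *Timd4*, *Lrp1* and *Cd36* with a UMI was counted in each thinned cell. In CCR2- cells, at least 3 of them had a UMI in 58.6% of thinned WT and 51.0% of thinned KO cells. The same share was 35.4% and 30.9% in CCR2+ cells, 5.56% and 4.26% in monocyte-like cells and 6.67% and 3.33% in dendritic cell-like cells. The dendritic shares rest on 30 thinned cells in each library, after thinning left out 31 WT cells and no KO cell. Whether such shares exceed those that each gene alone would give was not tested. In CCR2- cells, *Mertk* was found in 59.2% of WT cells with *Axl* and 56.8% of those without (KO 55.8% and 52.3%). With and without *Timd4* it was found in 57.5% and 57.8% (KO 50.3% and 55.0%). *Timd4* was found in 28.8% of WT cells with *Cd36* and 30.8% of those without (KO 35.9% and 31.0%). Within each of these pairs the intervals overlapped. *Axl* and its ligand gene *Gas6* were then compared within cells. Among WT CCR2- cells with a *Gas6* UMI, 30.9% had an *Axl* UMI (27.7 to 34.3), and among those without, 51.9% (45.4 to 58.3). In KO the shares were 26.5% and 45.0%. Within the largest cluster alone, led by *Olfml3* and *Gpr34*, they were 38.6% and 58.2% in WT and 40.6% and 64.4% in KO. These intervals overlapped in KO and did not in WT. WT shares in clusters described below were 42.5% and 58.3% (*Gdf15*), 25.9% and 44.1% (*Cdc20*), 65.5% and 69.4% (*Cd207*) and 5.88% and 37.5% (histone genes). In each of these clusters the intervals overlapped. The *Saa3* and *Prg4* cluster described below went the other way, with 38.7% and 22.2% in WT and 30.8% and 21.6% in KO, over 58 WT and 50 KO cells and with overlapping intervals. For *Mertk* the shares in the class were 58.1% among cells with *Gas6* and 56.4% among cells without in WT, and 56.8% and 45.7% in KO. These shares describe cells of 1 library each. In the *Ccl8* cluster only 3 WT and 4 KO thinned cells had no *Gas6* UMI. The part of the cluster mix in the shares of the class was not tested.

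The CCR2- class was made of 7 clusters, and the genes separated them. Clusters are called by their leading genes. With WT and KO cells, they were led by *Olfml3* and *Gpr34* (406 and 158), *Ccl8* and *Lyve1* (195 and 132), *Gdf15* and *Cd83* (165 and 66), *Cdc20* and *Cenpf*, genes of mitosis (145 and 34), *Cd207* and *Vsig4* (69 and 17), *Saa3* and *Prg4* with *Marco* and *Alox15* (59 and 53), and histone genes (42 and 17). Since a cluster is made from the same cells whose levels are then given, the levels by cluster are a description.

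*Gas6* peaked in the *Ccl8* and *Lyve1* cluster, at 774 (WT) and 645 CPM (KO), and 98.4% and 96.9% of its thinned cells had a UMI. The *Olfml3* cluster had 399 and 271 CPM, the *Gdf15* cluster 372 and 283 CPM and the mitotic cluster 346 and 291 CPM. The lowest clusters were those led by histone genes (199 and 171 CPM), *Cd207* (136 and 53.7 CPM) and *Saa3* (113 and 104.7 CPM). *Axl* had another order. It was lowest in the *Ccl8* cluster, at 21.3 (WT) and 23.6 CPM (KO), and highest in the *Cd207* cluster, at 184 and 263 CPM. Thinned cells with an *Axl* UMI were 9.57% and 11.6% of the *Ccl8* cluster, against 67.7% and 68.8% of the *Cd207* cluster.

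*Timd4* was concentrated in the *Saa3* and *Prg4* cluster, a small group of cells with a high median of 47279 UMIs in WT and 60603 in KO. Summed B cell markers there were 17.5 and 11.5 CPM over 8 markers, of which 4 and 3 were at 0, against 180 and 166 CPM in all CCR2- cells. The B cell list includes *Ighm*, a leading gene of the *Olfml3* cluster, where the sums were 294 and 292 CPM. The sums over all CCR2- cells are therefore no measure of B cell RNA alone. Cardiomyocyte, fibroblast, erythroid and T cell markers were also lower in the *Saa3* cluster in both libraries. Neutrophil markers were higher, at 112.5 and 84.8 CPM against 58.3 and 79.2 CPM. Endothelial markers were 19.3 and 40.4 CPM against 28.8 and 32.7 CPM. The *Timd4* level in this cluster was 608 (WT) and 536 CPM (KO), and 84.5% and 84.0% of its thinned cells had a UMI. The *Ccl8* cluster came next, at 149 and 161 CPM with 52.7% and 54.3% of thinned cells. The *Cd207* cluster had 138 (WT) and 64.4 CPM (KO). The other 4 clusters lay between 36.8 and 52.9 CPM in WT and between 38.4 and 49.7 CPM in KO. *Pros1* was also highest in the *Saa3* cluster, at 87.9 (WT) and 155 CPM (KO), followed by the *Ccl8* cluster at 83.7 and 127 CPM. In WT the intervals of these clusters overlapped.

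*Mertk* varied less, from 99.7 CPM in the *Saa3* cluster to 207 CPM in the *Cd207* cluster in WT and from 60.3 CPM in the mitotic cluster to 201 CPM in the *Olfml3* cluster in KO. *Cd36* was lowest in the *Cd207* cluster, at 43.9 and 16.1 CPM, and reached 577 and 494 CPM in the *Ccl8* cluster. *Lrp1* was lowest in the *Ccl8* cluster, at 109 and 119 CPM, and highest in the *Olfml3* cluster in WT (341 CPM) and the *Cd207* cluster in KO (298 CPM). The *Ccl8* and *Lyve1* cluster thus combined the highest *Gas6* and *Cd36* with the lowest *Axl* and *Lrp1* of the 7 clusters in both libraries. An unnamed cluster of low depth (median 5516 UMIs) led by *Gm26917* and *Plxna4* had the highest *Mertk* level of the clusters described here, 470 (WT) and 751 CPM (KO).

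Within the monocyte-like class, *Cd36* differed between clusters in both libraries. The cluster led by *Ace* and *Eno3*, genes of patrolling monocytes, had 657 CPM of *Cd36* in WT and 393 CPM in KO. The cluster led by *S100a8* and *Ly6c2*, genes of inflammatory monocytes, had 38.3 and 16.8 CPM. The third cluster, led by *Ldlrad3* and shallow (medians 3625 and 4792 UMIs), had 1026 and 300 CPM. *Axl* was higher in the *S100a8* cluster than in the *Ace* cluster, 37.2 against 13.1 CPM in WT and 30.5 against 15.3 CPM in KO. For *Mertk* these levels were 13.7 and 2.05 CPM in WT and 5.97 and 4.36 CPM in KO.

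**Figure D2:**
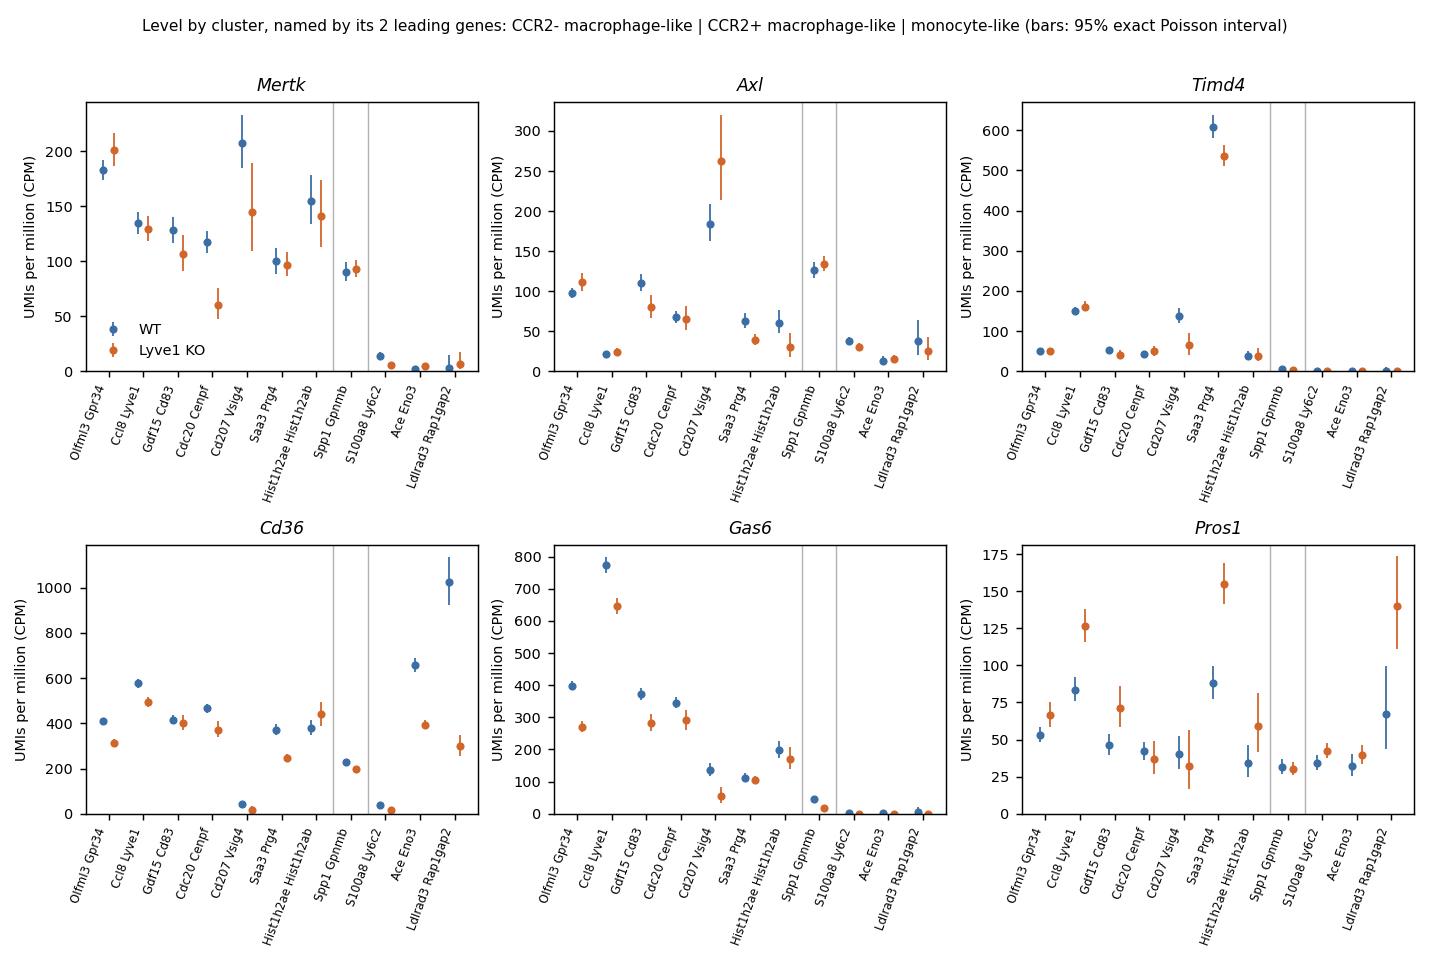
Level in CPM (vertical axis) of *Mertk*, *Axl*, *Timd4*, *Cd36*, *Gas6* and *Pros1* in the 7 CCR2- clusters, the CCR2+ cells and the 3 monocyte-like clusters, named by leading genes, for the WT and the *Lyve1* KO library; bars are 95% exact Poisson intervals of counting error. *Gas6* peaked in the *Ccl8* and *Lyve1* cluster (774 and 645 CPM), where *Axl* was at 21.3 and 23.6 CPM, and *Timd4* peaked in the *Saa3* and *Prg4* cluster (608 and 536 CPM).

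**Figure D3:**
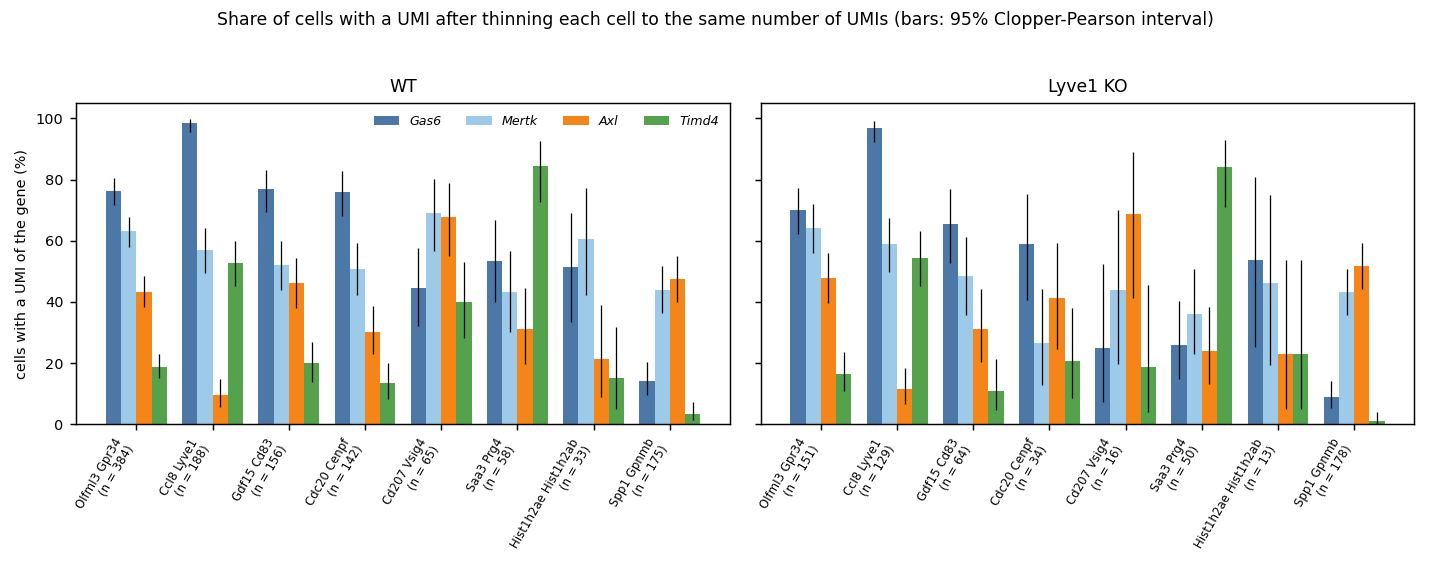
Percent of cells with at least 1 UMI of *Gas6*, *Mertk*, *Axl* or *Timd4* after thinning each cell to 7400 UMIs, in the 7 CCR2- clusters and in CCR2+ cells, 1 panel per library. *Gas6* was found in 98.4% and 96.9% of cells of the *Ccl8* and *Lyve1* cluster, where *Axl* was found in 9.57% and 11.6%, and *Timd4* in 84.5% and 84.0% of the *Saa3* and *Prg4* cluster.

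The comparison of the libraries asks how immune cells with and without *Lyve1* differed in the infarcted neonatal heart. A gene with a sum of at least 100 UMIs over the libraries was counted as different when its level was at least 1.5-fold apart. Of 9 such genes in CCR2- cells, 1 was different, *Pros1*, which was higher in KO. Of 11013 genes measured in that class, 7.59% were different, 3.15% higher and 4.44% lower. In CCR2+ cells 1 of 7 was different, *Gas6*, which was lower, beside 6.29% of all genes (2.55% higher and 3.74% lower). In monocyte-like cells 2 of 7 were different, *Mertk* and *Cd36*, both lower, beside 3.69% (1.52% higher and 2.17% lower). In dendritic cell-like cells 1 of 3 was different, *Timd4*, which was lower, beside 15.6% (4.81% higher and 10.8% lower). This made 5 of 26 pairs of a gene and a class. The median log2 ratio of KO to WT over all genes in CCR2- cells was -0.10, and over the 9 genes it was -0.15. With libraries scaled so that this median is 0, *Timd4* in CCR2- cells also passed, giving 2 higher and 4 lower pairs in place of 1 and 4.

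*Pros1*, which codes for protein S, was 58.2 (WT) and 99.3 CPM (KO) in CCR2- cells, a ratio of 1.71 (1.59 to 1.83). It was higher in KO in 5 of the 7 clusters, among them *Saa3* (1.76), *Gdf15* (1.54), *Ccl8* (1.51) and *Olfml3* (1.25). The share of all genes higher in as many clusters was not counted. The mitotic and *Cd207* clusters had ratios of 0.870 and 0.798 with intervals that include 1. The *Saa3* cluster held 5.46% of WT and 11.1% of KO CCR2- cells, and it gave 15.03% and 34.3% of their *Pros1* UMIs. With the KO clusters weighted as in WT the ratio was 1.38, and without the *Saa3* cluster it was 1.52. In male cells, called by Y-linked RNA, it was 1.84, and in female cells, called by *Xist* RNA, 1.55. Of all kept cells, 1095 WT and 931 KO cells had neither kind of RNA and 69 and 42 had both. They are in neither sex. Male and female cells come from different hearts of a pool, so sex cannot be told apart from heart here and below. In monocyte-like cells *Pros1* was 1.33 times as high in KO (1.15 to 1.55), and in CCR2+ cells the ratio was 0.959 with an interval of 0.769 to 1.20.

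*Timd4* was 127 (WT) and 186 CPM (KO) in CCR2- cells, a ratio of 1.47 (1.39 to 1.54), under the limit of 1.5. The *Saa3* cluster, where *Timd4* peaked, gave 47.6% of its UMIs in WT and 63.3% in KO. Inside that cluster the KO level was 0.881 times the WT level (0.824 to 0.943), and inside the *Ccl8* cluster 1.08 times (0.973 to 1.20). With the KO clusters weighted as in WT the ratio was 0.927. In male cells it was 1.84, with 40 WT and 41 KO cells in the *Saa3* cluster (5.52% and 16.3% of male CCR2- cells). In female cells it was 0.908, with 16 and 9 cells there (5.50% and 4.71%). The higher *Timd4* in KO was thus seen in the class and in male cells, and not inside the clusters that held most of it. Whether the share of the *Saa3* cluster differs between genotypes beyond the difference between pools was not tested.

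*Gas6* was lower in KO in all 7 CCR2- clusters, as were 4.26% of 7422 genes with at least 20 UMIs in each cluster, while 1.21% were higher in all 7. Its class level was 406 (WT) and 331 CPM (KO), a ratio of 0.814 (0.787 to 0.842). The ratios ran from 0.394 in the *Cd207* cluster to 0.930 in the *Saa3* cluster. The intervals of the *Olfml3*, *Ccl8*, *Gdf15*, mitotic and *Cd207* clusters lay below 1, and those of the *Saa3* cluster and of the histone cluster included it. In male and female cells the ratios were 0.777 and 0.877, and with the KO clusters weighted as in WT it was 0.774. In CCR2+ cells *Gas6* was 44.6 (WT) and 18.4 CPM (KO), a ratio of 0.412 (0.325 to 0.520). A UMI was found in 38 of 195 and 21 of 191 cells, with at most 12.7% of the UMIs in 1 cell. After thinning, the shares of CCR2+ cells were 14.3% (9.46 to 20.4) and 8.99% (5.23 to 14.2), with overlapping intervals. The ratio there was 0.430 in male and 0.328 in female cells. Summed levels of cardiomyocyte markers also differed between the libraries in these cells, 96.8 (WT) and 14.7 CPM (KO) over 7 markers with none at 0, against 104.5 and 74.9 CPM in CCR2- cells. Their part in the result was not tested.

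*Mertk*, *Axl*, *Lrp1* and *Cd36* were each somewhat lower in KO CCR2- cells, with ratios of 0.900 (0.852 to 0.950), 0.810 (0.750 to 0.875), 0.791 (0.758 to 0.825) and 0.842 (0.815 to 0.870). None passed 1.5-fold. The log2 ratio of *Mertk* was -0.15, near the median of -0.10 over all genes of the class. In male cells the 4 ratios were 0.830, 0.709, 0.790 and 0.840. In female cells *Lrp1* and *Cd36* had ratios of 0.759 and 0.873. *Mertk* and *Axl* were not clearly lower there, at 1.07 (0.980 to 1.17) and 0.994 (0.874 to 1.13). *Mertk*, *Lrp1* and *Cd36* were each lower in 6 of the 7 clusters and *Axl* in 4. The shares of all genes lower in as many clusters were not counted, so these counts are a description. The unnamed *Gm26917* cluster was not among the 7. There the ratio was 1.60 (1.39 to 1.83) for *Mertk*, 0.673 for *Axl*, 0.971 for *Lrp1* and 0.936 for *Cd36*. For *Axl*, weighting the KO clusters as in WT gave a ratio of 1.004. The *Ccl8* cluster, where *Axl* was lowest, held 18.0% of WT and 27.7% of KO CCR2- cells. *Mertk* in the mitotic cluster was 117 (WT) and 60.3 CPM (KO), a ratio of 0.515 (0.399 to 0.658), over 536 and 74 UMIs. *Cd47* and *Mfge8* had ratios of 1.03 (0.983 to 1.08) and 0.942 (0.801 to 1.10).

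In monocyte-like cells *Cd36* was 263 (WT) and 165 CPM (KO), a ratio of 0.627 (0.588 to 0.668). It was lower in KO in each of the 3 clusters, at 0.598 in the *Ace* cluster, 0.438 in the *S100a8* cluster and 0.293 in the shallow *Ldlrad3* cluster. The share of all genes lower in all 3 was not counted. Without the shallow cluster the ratio was 0.689, which does not pass 1.5-fold. Male cells gave 0.545 and female cells 0.748. Thinned monocyte-like cells with a *Cd36* UMI were 39.9% (WT) and 36.9% (KO), with overlapping intervals. *Mertk* was 9.83 (WT) and 5.45 CPM (KO), a ratio of 0.555 (0.389 to 0.788) over 82 and 57 UMIs. It was 0.331 in male cells and 0.983 in female cells, so the difference was not seen in female cells, where 22 and 30 UMIs were counted. By cluster it was lower in KO in the *S100a8* cluster alone, with a ratio of 0.435 (0.285 to 0.652). The *Ace* and *Ldlrad3* clusters had ratios of 2.13 (0.745 to 7.42) and 2.53, the latter on 1 and 4 UMIs and with an interval that includes 1. With 10 CPM added to both sides the class ratio was 0.779, which does not pass 1.5-fold. Thinned cells with a *Mertk* UMI were 4.80% (2.91 to 7.39) in WT and 1.92% (0.881 to 3.61) in KO, with overlapping intervals. Summed neutrophil markers in monocyte-like cells were 1261 (WT) and 739 CPM (KO) over 8 markers, none at 0, and *C1qa* was 34.2 and 2.10 CPM. The part of these markers in the ratios was not tested. The neutrophil list includes *S100a8* and *Mmp8*, leading genes of the *S100a8* monocyte cluster, so its sum is no measure of neutrophil RNA alone. *Lrp1* and *Cd47* in monocyte-like cells had ratios of 1.04 and 1.07.

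In dendritic cell-like cells *Timd4* was 142 (WT) and 88.4 CPM (KO), a ratio of 0.624 (0.489 to 0.795) over 174 and 115 UMIs. In WT 1 cell held 25.9% of these UMIs, and in KO 1 cell held 32.2%. Thinned cells with a *Timd4* UMI were 23.3% (WT) and 16.7% (KO), with overlapping intervals. The ratio was 0.377 in male and 1.23 in female cells. The class joined cells like cDC1, conventional dendritic cells of type 1 (22 WT and 22 KO cells), and cells like migratory dendritic cells (39 and 8). *Timd4* had a ratio of 0.522 (0.379 to 0.713) in the cDC1-like cells and of 0.925 (0.622 to 1.37) in the migratory ones. The unnamed *Cd209a* and *H2-Ab1* cluster was not part of the class. It held more *Timd4* UMIs, 575 (WT) and 661 (KO), with a ratio of 1.18 (1.06 to 1.33). When only *Lyve1* and sex-linked genes were kept out of clustering, the class had a ratio of 0.914. With 2 times as many doublets left out it was 0.722, and neither value passes 1.5-fold. Markers of other cells differed between the libraries in this class. Summed T cell markers were 49.6 (WT) and 13.1 CPM (KO) over 9 markers with 3 and 4 at 0, and erythroid markers 46.4 and 7.69 CPM over 5 with 0 and 3 at 0. Endothelial markers were 21.2 and 80.7 CPM over 6 with 1 and 3 at 0, and neutrophil markers 6.51 and 24.6 CPM over 8 with 3 and 3 at 0. Their part in the ratios was not tested. *Cd36* had a ratio of 0.931 in these cells, 0.597 in male and 2.11 in female cells. *Cd47* had a ratio of 0.825, and *Axl* was measured at 39.9 and 10.8 CPM over 63 UMIs in all.

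**Figure D4:**
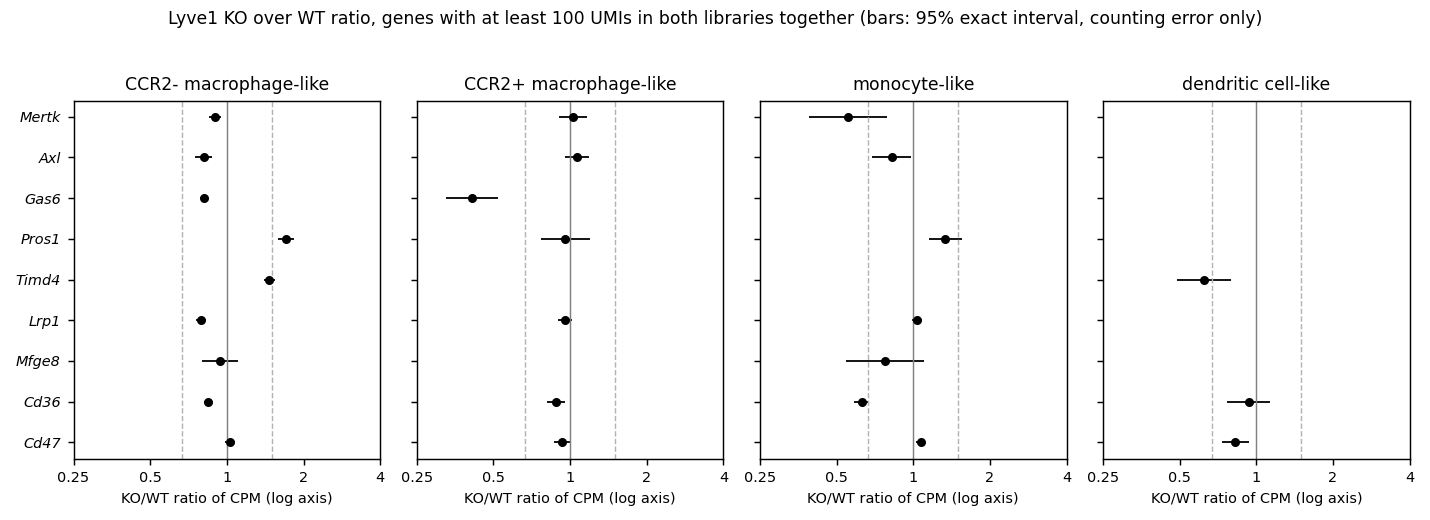
Ratio of the level in the *Lyve1* KO library to that in the WT library (horizontal axis, logarithmic) for each gene with at least 100 UMIs in a class, in the 4 classes; bars are 95% exact conditional binomial intervals of counting error and dashed lines mark 1.5-fold in each direction. *Pros1* in CCR2- cells (1.71) lay above the upper line, and *Gas6* in CCR2+ cells (0.412), *Mertk* (0.555) and *Cd36* (0.627) in monocyte-like cells and *Timd4* in dendritic cell-like cells (0.624) lay below the lower one.

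The wider pathway was read from 85 other efferocytosis genes in 6 lists, of which 84 were in the tables. These lists were chosen with earlier results of these data known. In CCR2- cells 71 of them had at least 100 UMIs, and 9 were at least 1.5-fold higher and 1 lower in KO, beside 3.15% and 4.44% of all genes of the class. Among bridging molecules and opsonins 4 of 10 were higher and none lower. Among other receptors 1 of 18, engulfment machinery 1 of 19, receptors for find-me signals 1 of 5 and do-not-eat-me genes 1 of 4 were higher, and among genes that act after engulfment 1 of 15 was higher and 1 lower. In CCR2+ cells 2 were higher and 4 lower of 68, beside 2.55% and 3.74% of all genes. In monocyte-like cells 3 were higher and 7 lower of 65, beside 1.52% and 2.17%. In dendritic cell-like cells 4 were higher and 4 lower of 35, beside 4.81% and 10.8%. The following were named after their values were seen. In CCR2+ cells *Marco* and *Cd24a* were higher and *Stab1*, *Thbs1*, *C4b* and *Hmox1*, the heme oxygenase gene, were lower. In monocyte-like cells *Marco*, *Dock1* and *Nr1h3*, a sterol-sensing receptor gene, were higher, and *Cd14*, *Cd93*, *Apoe*, *Thbs1*, *Cd24a*, *Abca1*, a cholesterol exporter gene, and *Slc7a11* were lower. In dendritic cell-like cells *Cd300a*, *Anxa1*, *P2ry6* and *Sirpa*, the receptor of CD47, were higher and *Apoe*, *Gpr132*, *Slc2a1* and *Adam10* lower. In CCR2- cells the genes between 1.5-fold and 2-fold higher were *Ptk2* (1.73), *Anxa1* (1.65) and *Olr1* (1.63). With the KO clusters weighted as in WT their ratios were 1.06, 1.49 and 0.777. Without the *Saa3* cluster, which held 93.75% (WT) and 96.1% (KO) of the *Olr1* UMIs, they were 1.37, 1.56 and 1.18. In male cells they were 2.68, 2.30 and 1.61, and in female cells 0.787, 0.893 and 2.11.

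At least 2-fold differences in CCR2- cells were found for 6 of these genes, all higher in KO. *Cd24a*, a do-not-eat-me ligand, was 7.04 (WT) and 31.5 CPM (KO), and the *Saa3* cluster held 92.9% and 98.7% of its UMIs. *Thbs1*, which codes for thrombospondin 1, a ligand of CD36, was 153 and 410 CPM, with 70.1% and 92.2% of UMIs in that cluster. *Slc7a11*, a cystine and glutamate exchanger, was 7.79 and 19.1 CPM, with 62.6% and 93.9% there. Without the *Saa3* cluster the ratios of these genes were 0.953, 0.811 and 0.461, so the higher level in KO was not seen in the other clusters together. The complement opsonin genes *C4b* (77.0 and 232 CPM) and *C3* (35.3 and 74.1 CPM) and the nucleotide receptor gene *P2ry2* (2.84 and 6.98 CPM) kept ratios of 1.99, 2.29 and 1.74 without it. With the KO clusters weighted as in WT, *C3* had a ratio of 1.13. The sexes differed in size for some of these ratios. They were 6.22 in male and 1.68 in female cells for *Cd24a*, 3.53 and 1.06 for *Thbs1*, 4.28 and 1.59 for *C4b*, and 3.10 and 1.59 for *P2ry2*. The only lower gene, *Slc2a1*, which codes for the glucose transporter GLUT1 and is named after its value was seen, was 37.5 and 20.6 CPM, a ratio of 0.550.

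Genes whose levels followed each of the 10 most closely were ranked by Pearson's r of log2(CPM + 10) over 61 points, each a cluster of 1 library with at least 20 cells, among 13849 genes. These points share libraries and cover all cell types, and the genes are given as a description. Among the 3 closest to *Mertk* were *Mir99ahg* (0.953) and *Igf1* (0.949). The closest to *Gas6* were *Stab1*, a scavenger receptor of resident macrophages (0.959), *Igf1* (0.952) and *Pmp22* (0.946). *Igf1*, which codes for insulin-like growth factor 1, was thus near to both. *Axl* was closest to *Adap2* (0.896), *Myof* (0.878) and *Tmem106a* (0.871), and *Lrp1* to *Clec4a3* (0.941), *Clec4a1* (0.938) and *Pid1* (0.935). Among the 3 closest to *Pros1* were *Dock1*, an engulfment adaptor gene (0.889), and *Ctnnd1* (0.888). The patterns of *Timd4* (*Mgl2*, 0.7998, *Mt1*, 0.770, and *Sh3pxd2b*, 0.749), *Cd36* (*Lifr*, 0.817, *Ctnnd1*, 0.810, and *Dusp3*, 0.801), *Mfge8* (*Igfbp7*, 0.768, *Lxn*, 0.749, and *Gstk1*, 0.735) and *Cd47* (*Cytip*, 0.694, *Pitpnm1*, 0.690, and *Cdkn1b*, 0.679) were matched less closely. *Tyro3* had too few UMIs to be ranked.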

How the data were processed

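The authors deposited raw UMI counts per gene and cell barcode, made with Cell Ranger 8.0.1 (submitters' processing notes) on mm10/GRCm38 and limited to barcodes called as cells. The assignment of cells to hearts was not used here. The study's cell limits were used: a minimum of 500 genes and 250 UMIs, and no more than 30% of UMIs mitochondrial. Scrublet (scanpy 1.11.5) marked 1 WT and 4 KO barcodes by itself, so the highest scores (98 and 73, the rate known for the chemistry) were left out. Seurat 5.3.0 (R 4.3.3) was run with log normalization, cell cycle scores regressed out, CCA integration (2000 variable genes, 30 dimensions) and a resolution of 0.8, and macrophage, monocyte and dendritic clusters were clustered again. The 10 genes, the pathway lists, *Lyve1*, *Cd44* and sex-linked genes (101 in the tables) were kept out of clustering. A name needed at least 3 markers in at least 25% of cells each, no better represented other list among the 10 leading genes, and enough depth. The scoring was chosen once the counts had been seen. A shallow cluster with no leading marker of its own stayed unnamed if shallow in both libraries, and the *Ldlrad3* cluster was so in WT alone. Counts were summed per class, divided by all UMIs of the same cells, and compared as ratios. With 1 library per genotype no test, p-value or count of significant genes was made. The 1.5-fold limit and the ratio intervals were tried on simulated Poisson counts. These hold counting error only, so the trial says nothing about variation between cells, hearts or pools. Python 3.11.15, numpy 2.4.6, scipy 1.17.1 and pandas 2.3.3 were used.

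The genes and lists were chosen with earlier results of these data known. Genes named are the 10, *Lyve1*, for each of the 10 the 3 most alike in pattern, and pathway genes at least 2-fold apart in CCR2- macrophage-like cells. Cluster leaders and the markers that describe the classes are named too. As exceptions, the other pathway genes at least 1.5-fold apart in a class, *Slc2a1* included, were named after their values were seen, and *Tyro3* had too few UMIs to be ranked. The pathway gene *Clec7a* was not analysed here. For *Mertk* and *Pros1*, 1 of the 3 genes most alike is not reported here. A UMI marks a molecule, but free RNA in droplets adds UMIs to all cells, and 5′ counting does not correct for length.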

Additional observations from a re-analysis of the deposited data

Results flagged for a closer look

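*Cd36* in CCR2+ cells stood on opposite sides of 1 in the sexes. The ratio of KO to WT was 0.655 in male cells (314 CPM in WT, 206 CPM in KO, 107 and 108 cells) and 1.91 in female cells (101 and 194 CPM, 73 and 64 cells), while the whole class gave 0.877. The intervals, 0.592 to 0.724 and 1.61 to 2.27, cover counting error only, and the difference between the sexes was not tested. Sex cannot be told apart from heart in these pools.

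*Timd4* differed in opposite directions in 2 classes. The ratio was 1.47 in CCR2- cells and 0.624 in dendritic cell-like cells, and the difference between the classes was not tested. In female cells alone it was 0.908 and 1.23, and with the KO clusters weighted as in WT the CCR2- value was 0.927. The dendritic value rests on 61 WT and 30 KO cells. It leaves out the unnamed cluster led by *Cd209a* and *H2-Ab1*, nearest to conventional dendritic cells of type 2. There the ratio was 1.18 (1.06 to 1.33) over 1236 UMIs.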

How the results depend on the processing

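No paired analysis was possible because each genotype had 1 library, and leaving out a replicate was impossible for the same reason. The count of gene and class pairs at least 1.5-fold apart was 5 of 26 and stayed between 4 and 7 under 15 alternatives, while without a minimum of UMIs it was 13. The pairs themselves changed. In female cells alone *Pros1* in CCR2- and *Gas6* in CCR2+ cells still passed. *Mertk* and *Cd36* in monocyte-like cells and *Timd4* in dendritic cell-like cells did not. *Cd36* in CCR2+ (1.91) and dendritic cell-like cells (2.11) and *Axl* in monocyte-like cells (0.631) passed there instead. The count of genes highest in WT CCR2- cells was 6 and ranged from 5 to 7, without a share over all genes to set beside it. The count of pathway genes at least 1.5-fold apart in CCR2- cells was 10. It was 5 with the KO clusters weighted as in WT, 6 without the *Saa3* cluster, 17 in male cells alone and 19 without a minimum of UMIs. Of 356 ratios of the genes recomputed under alternatives, 299 stayed within their counting interval, 56 moved beyond it, and 1 crossed 1 from a value at least 1.5-fold apart, *Timd4* in dendritic cell-like cells, which was 1.23 in female cells alone. Ratios nearer to 1 crossed it too, among them *Timd4* in CCR2- cells (1.47), which was 0.908 in female cells and 0.927 with WT weights, and *Cd36* in CCR2+ cells (0.877), which was 1.91 in female cells. Of shares of cells, 109 did not move beyond their interval and 51 did. *Gas6* in CCR2+ cells ranged from 0.328 to 0.520 over 12 alternatives, and no CCR2+ class was found at resolution 0.4. *Pros1* in CCR2- cells ranged from 1.38 to 1.84 over 15. *Cd36* in dendritic cell-like cells, 0.931 from summed UMIs, was 1.95 as a mean over cells and 2.11 in female cells. Where no cause is shown by the alternative itself, the cause was not tested. Alternatives leaving out the *Saa3* or the *Ldlrad3* cluster or adding the *Gm26917* cluster were chosen after seeing the data. Depth limits *Tyro3*, *Mfge8* and the dendritic class.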
